A study of Mus musculus with 10 samples.

Results

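Transcription factors that set or accompany the slow or fast character of muscle fibers were followed in gastrocnemius (GAS) of diet-induced obese (DIO) mice. The set is defined by symbol and holds 9 genes, Sox6, Tbx15, Prox1, Vgll2, Tead1, Tead4, Maf, Nfix and Runx1, of 21160 genes in the table, and Myh7 and Actn3 were set beside them as the slow and fast sarcomere references. All 10 mice were male wild-type C57BL/6J animals, put on the high fat diet D12492i at 9 weeks of age and dissected at 30 weeks by the series' design text. The 5 ASO mice received RES-010, a locked nucleic acid (LNA) antisense oligonucleotide against miR-22, subcutaneously at 10 mg/kg once a week for 14 weeks, and the 5 control mice (CTRL) received saline on the same schedule, so that the comparison does not hold a second oligonucleotide of unrelated sequence. Each library comes from the GAS of one mouse, a mixed but mostly fast muscle, so a difference in RNA per fiber and a difference in the number of fibers or other cells cannot be told apart.

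Muscle fibers are grouped by their myosin heavy chain. Slow type I fibers carry Myh7 and rely on oxidative metabolism, whereas the fastest glycolytic fibers carry Myh4 and the Z-disc protein Actn3. Sox6 represses slow genes in fast fibers, Tbx15 marks and maintains glycolytic fibers, and the large Maf factors drive the fastest myosin genes. Prox1 and Vgll2 act on the slow side, with Vgll2 working as a cofactor of the TEAD proteins Tead1 and Tead4, which bind the MCAT element of muscle promoters. Nfix switches muscle from its embryonic to its fetal program and represses slow myosin there, and Runx1 is induced in denervated and regenerating muscle.

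The library totals lay between 1606909 and 2116720 counts in CTRL and between 2239186 and 2632560 with the ASO, so every ASO library was deeper than every CTRL library. The table counts read pairs only on segments of up to 500 bp at the 3′ end of each transcript, and the 11523 segments that share their coordinates with another one hold 0 counts. Genes such as Mb, Tnnt3, Mylpf, Yap1 and Cbfb, whose segments overlap each other almost completely, are listed at 0 in all 10 libraries, and their levels are not known from this table. Of the muscle fiber markers, Acta1 and Ckm were abundant in every library, and the summed level of the 8 markers was 84636 to 130012 CPM (counts scaled to a common library size) in the ASO libraries and 40595 to 79765 CPM in the CTRL libraries. ASO replicate 4 held the most Myh7 and a summed Schwann cell marker level of 483 CPM, against 34.8 to 109.6 CPM in the other 9 libraries.

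Among the 8 factors that passed the filter on low counts, 1 rose (Nfix) and 1 fell (Tead1) under edgeR's quasi-likelihood test at a Benjamini-Hochberg adjusted p-value of 0.05 over all genes tested. Over all genes, 29.2% of the 7819 genes tested passed, 11.7% higher and 17.5% lower with the ASO, so 2 of 8 is close to the background. DESeq2 called the same 2 factors and 25.2% of the genes it gave an adjusted p-value. The groups did not overlap for the same 2 genes, against 21.4% of all genes tested, of which 7.98% were higher and 13.4% lower. The median log2 fold change of the 8 factors was 0.28, and that of all genes tested was -0.03. Prox1, the ninth, was too low to be tested. With upper quartile scaling the median of all genes tested was 0.06 and 1261 genes rose and 1207 fell, and with total counts it was -0.21 with 528 up and 1821 down, whereas TMM gave 916 and 1365.

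In CTRL, the most counted segment of each factor gave the order of levels per length. Tbx15 stood at 957 ± 140.0 CPM per kb (SD, n = 5) and Nfix at 884 ± 151, followed by Vgll2 at 578 ± 318, Maf at 363 ± 59.4 and Sox6 at 319.6 ± 108. Tead1 (133 ± 90.4) and Tead4 (46.6 ± 15.5) were lower, and Runx1 (4.54 ± 2.54) and Prox1 (2.70 ± 2.38) were close to the detection limit. The Tead1 segment ends 6817 bp before the most distal annotated end, whereas those of the other factors lie at that end. The place of Tead1 in the order is therefore not known. Neighbors in this order had overlapping ranges over the 5 libraries, except Tead4 and Runx1, whose ranges of 28.0 to 65.0 and 2.24 to 8.48 stayed apart. Actn3 lay far above all of them at 19558 ± 7221 CPM per kb, and Myh7 was at 183 ± 237.

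**Figure D1:**
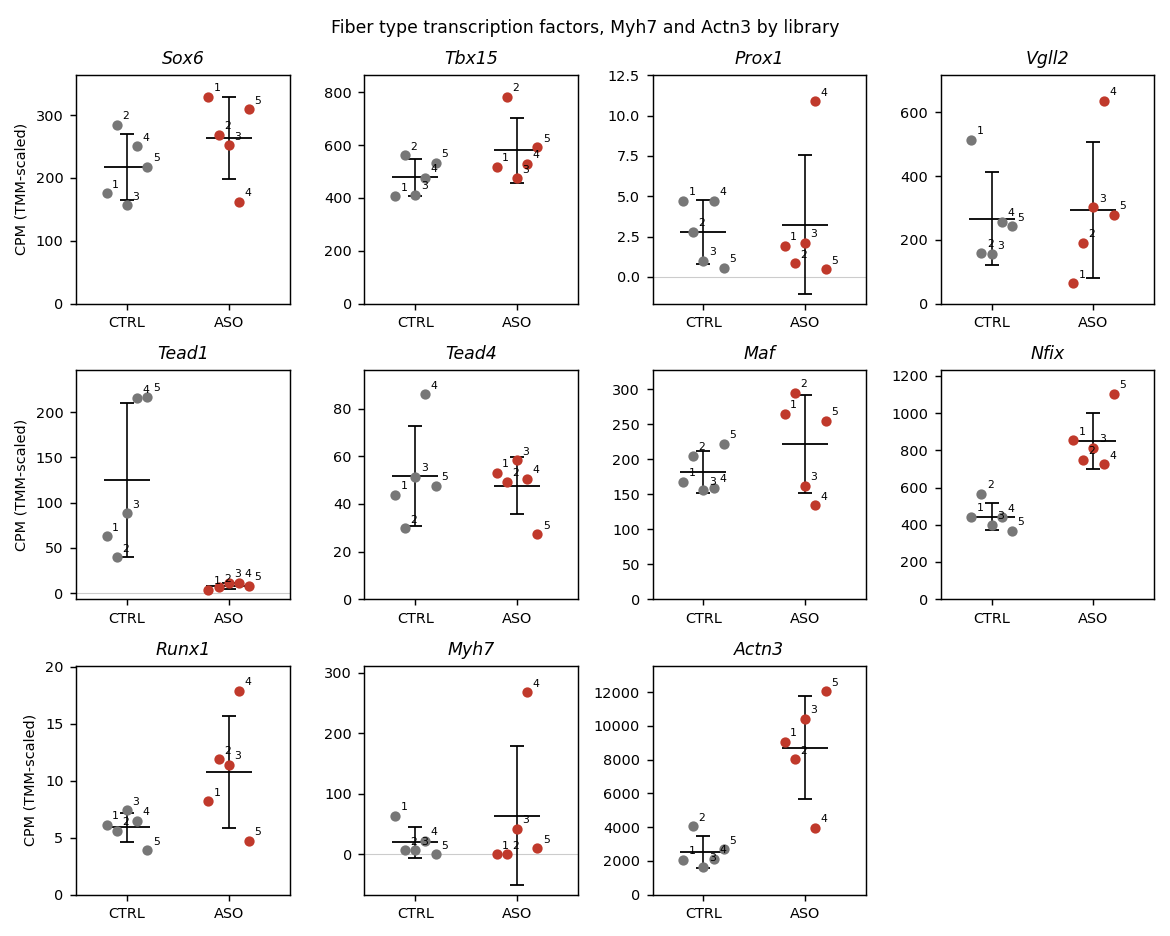
Level of each factor and of Myh7 and Actn3 in every library, in CPM on TMM-scaled library sizes (y axis, linear), for CTRL (gray) and ASO (red). Points carry the replicate number and the bars give the mean and SD over 5 libraries; only Tead1 and Nfix have groups that do not overlap, and ASO replicate 4 is the highest point for Prox1, Vgll2, Runx1 and Myh7.

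Nfix rose with the ASO. Its level was 854, 750.1, 814, 724 and 1103 CPM in ASO replicates 1 to 5 and 444, 566, 399.6, 441 and 369 CPM in CTRL replicates 1 to 5. The lowest ASO library stood above the highest CTRL library. The group means of 849 ± 151 and 444 ± 74.7 CPM (SD over 5 libraries) gave a log2 fold change of 0.93 (SE 0.16, 95% interval 0.58 to 1.29, edgeR adjusted p = 0.0015), or 1.91-fold. It stayed past the threshold in 20 other fits, among them DESeq2, limma-voom, other scalings and each library left out, with log2 fold changes between 0.72 and 1.04 and adjusted p-values between 5.8e-07 and 0.011 by the tool of each. Nearly all its counts, 99.9%, fell on 1 segment of the 3′UTR at its most distal end (GRCm39, chr8:85431341-85431840, minus strand). Of the 5066 tested segments at such an end 25.1% rose, with a median log2 fold change of 0.30. Of that segment, 229 of 500 bp overlap Lyl1 on the opposite strand, and since the sources name no strand option for the counting, reads of the 2 genes cannot be told apart there. Lyl1 itself held 8 to 26 counts per library, whereas Nfix held 658 to 2339.

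Tead1 fell with the ASO, as far as it was counted. Its level was 3.86, 6.37, 11.4, 11.3 and 8.02 CPM in ASO replicates 1 to 5 and 62.7, 39.6, 88.4, 215 and 217 CPM in the CTRL libraries. The highest ASO library was below the lowest CTRL library, and the CTRL libraries themselves spread widely. The group means of 8.19 ± 3.24 and 125 ± 85.4 CPM (SD over 5 libraries) gave a log2 fold change of -3.90 (SE 0.51, 95% interval -5.00 to -2.81, edgeR adjusted p = 3.2e-04). Over the 19 of these other fits that tested Tead1 the value lay between -4.43 and -3.61, with adjusted p-values from 1.2e-14 to 0.0017. With every library drawn down to the lowest total it was -3.92 (edgeR adjusted p = 2.9e-04).

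The Tead1 value rests on the inner part of its 3′UTR. All its 1243 counts fell on 2 segments of the 3′UTR on the plus strand of chromosome 7, chr7:112498167-112498666, which ends 7348 bp before the most distal annotated end, and chr7:112498698-112499197, which ends 6817 bp before it. The other 4 segments, at chr7:112505513-112506014, share their coordinates with each other almost completely and hold 0 counts, so the level of Tead1 transcripts at their distal end is not known here. The 2 counted segments had log2 fold changes of -3.58 (SE 0.53, edgeR adjusted p = 2.5e-04) and -4.14 (SE 0.52, edgeR adjusted p = 9.3e-05) when each segment was fitted singly. Such upstream segments were lower with the ASO over much of the table. Of 3737 tested segments that end at least 1000 bp before the most distal end of their gene, 53.7% were lower and 5.43% higher, with a median log2 fold change of -0.86, whereas of 5066 tested segments at the most distal end 4.38% were lower and 25.1% higher, with a median of 0.30. Among the upstream segments, 2.14% were at or below the smaller of both Tead1 falls, -3.58.

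Sox6 over all its segments did not pass the test, but its segments moved in opposite directions. Summed, the ASO group stood at 264 ± 65.0 CPM and the CTRL group at 217 ± 52.7 CPM, with overlapping groups (162 to 329 and 157 to 285 CPM) and a log2 fold change of 0.28 (SE 0.21, 95% interval -0.18 to 0.74, edgeR adjusted p = 0.35). Its most distal segment (chr7:115070107-115070606, minus strand) held 326, 265, 247, 159 and 303 CPM in the ASO libraries and 147, 246, 106, 171 and 129 CPM in the CTRL libraries, a log2 fold change of 0.74 (SE 0.24, edgeR adjusted p = 0.023) that missed the threshold with total counts in place of TMM (0.51, edgeR adjusted p = 0.081). On this segment ASO replicate 4 was the only ASO library below any CTRL library, and CTRL replicate 2 was the highest of its group. The segment 3584 bp upstream (chr7:115073691-115074190) held 2.90, 4.25, 5.07, 2.09 and 6.13 CPM in the ASO libraries and 28.8, 39.6, 50.9, 80.2 and 88.7 CPM in the CTRL libraries. These groups stood far apart, with 5 to 13 counts per ASO library and 61 to 158 per CTRL library, and the log2 fold change was -3.76 (SE 0.38, edgeR adjusted p = 3.4e-05).

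Tead4 showed the same opposition on a smaller scale. Its summed level was 53.1, 49.3, 58.4, 50.5 and 27.3 CPM in the ASO libraries and 43.9, 29.8, 51.4, 86.1 and 47.7 CPM in the CTRL libraries, with a log2 fold change of -0.11 (SE 0.27, 95% interval -0.69 to 0.47, edgeR adjusted p = 0.78). The distal segment (chr6:128201251-128201750, minus strand) was at 39.4 ± 10.9 against 23.3 ± 7.75 CPM and had a log2 fold change of 0.80 (SE 0.26, edgeR adjusted p = 0.027), a call lost with total counts (0.58, edgeR adjusted p = 0.12). The segments 2855 bp and 3893 bp upstream fell by 1.68 (SE 0.45, edgeR adjusted p = 0.0096) and 1.70 (SE 0.44, edgeR adjusted p = 0.0080) on the log2 scale. The groups overlapped on all 3 segments. In all, 8 of the 11 segments of the factors that could be tested singly passed, 3 higher and 5 lower, against 40.6% of the 10658 segments tested, 15.9% higher and 24.7% lower.

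**Figure D2:**
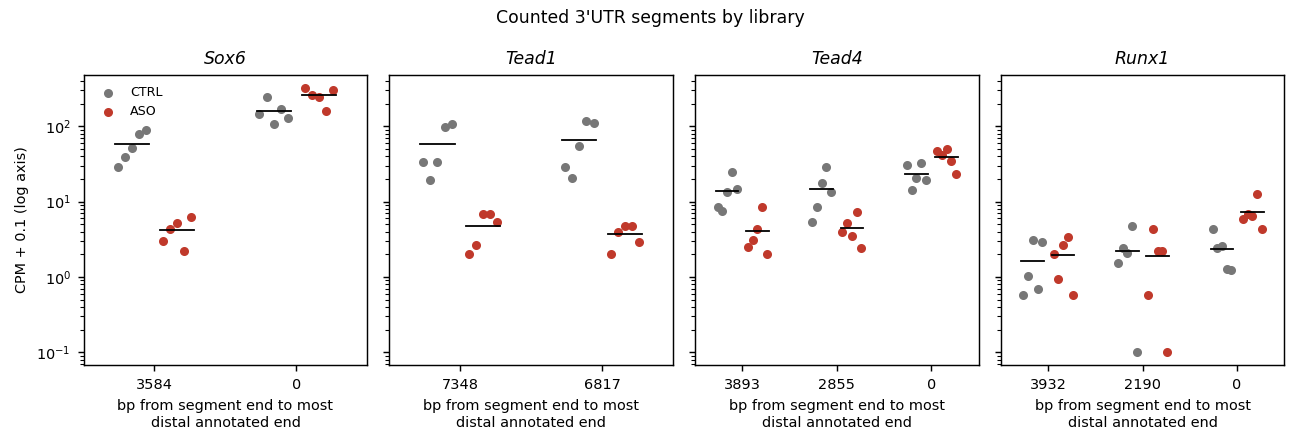
CPM plus 0.1 (log axis) on each counted 3′UTR segment of Sox6, Tead1, Tead4 and Runx1 within 20 kb of the most distal end, placed by the distance in bp from the segment's end to the most distal annotated end of the gene. Points are libraries (CTRL gray, ASO red) and lines are group means; upstream segments of Sox6, Tead1 and Tead4 are lower with the ASO and the distal segments of Sox6 and Tead4 are higher.

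Both directions were put into a single value per library. In every library, counts at the most distal segment were divided by counts at segments at least 1000 bp upstream, with 0.5 added to each, and put on a log2 scale, for the 3 factors with at least 50 counts on each side over the 10 libraries. In Sox6 the ratio was 6.70, 5.89, 5.54, 6.12 and 5.57 with the ASO and 2.35, 2.63, 1.06, 1.08 and 0.54 in CTRL, a difference of 4.44 (two-sided exact permutation test over 252 labellings, p = 0.0079, the smallest the design allows, adjusted over all 1611 genes p = 0.016). The share of upstream counts was 1.56% with the ASO and 25.7% in CTRL. In Tead4 the difference was 2.33 (exact permutation p = 0.016, adjusted p = 0.027), with upstream shares of 10.1% and 38.0%, and in Runx1 it was 1.82 (exact permutation p = 0.024, adjusted p = 0.038), with upstream shares of 34.4% and 60.3%.

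This shift was not particular to these factors. Of the 1611 genes with separable segments, 63.2% passed with a higher ratio in the ASO group and 2.67% with a lower one, and in 49.2% every ASO library stood above every CTRL library while the reverse held in 1.49%. The median difference over the 1611 genes was 1.28, and 87.8% were above 0. The Sox6 difference was greater than that of 99.2% of the genes, that of Tead4 than 80.8%, and that of Runx1 than 66.2%. The median ratio per library was 1.17 to 1.67 with the ASO and -0.45 to 0.49 in CTRL, so the groups did not overlap in this library-wide measure either. Its part in the values of Tead1, Nfix, Sox6, Tead4 and Runx1 was not tested.

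**Figure D3:**
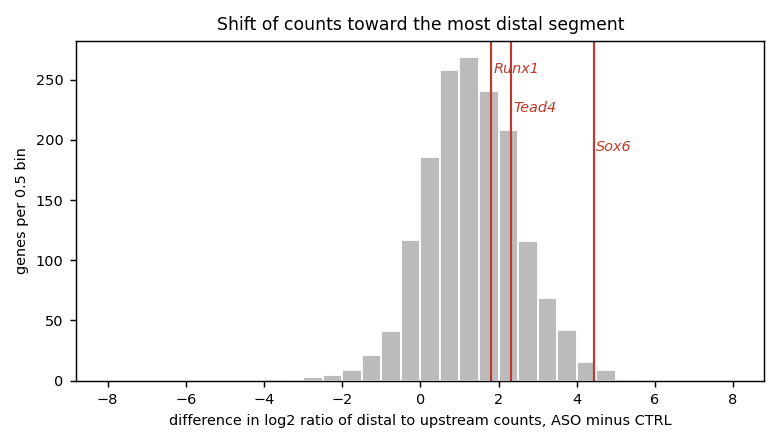
Number of genes (y axis) by the difference, ASO minus CTRL, of the mean log2 ratio of distal to upstream counts (x axis, bins of 0.5) for 1611 genes, with red lines at Runx1 (1.82), Tead4 (2.33) and Sox6 (4.44). Most of the distribution lies above 0, and Sox6 is in its upper tail.

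Runx1 was scarce in all libraries. It held 17, 28, 27, 43 and 10 counts with the ASO and 13, 12, 15, 11 and 7 counts in CTRL, or 10.8 ± 4.91 and 5.91 ± 1.29 CPM. ASO replicate 5 was within the CTRL range and the other 4 ASO libraries were above it. The log2 fold change of 0.87 (SE 0.34, 95% interval 0.14 to 1.61, edgeR adjusted p = 0.071) missed the threshold, and it passed with upper quartile scaling (0.96, edgeR adjusted p = 0.048), on the most distal segment alone (1.38, edgeR adjusted p = 0.034) and without ASO replicate 5 (1.07, edgeR adjusted p = 0.027). The distal segment (chr16:92398354-92398853, minus strand) held 82 counts over the ASO libraries and 23 over the CTRL libraries.

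The remaining fast-side factors, Tbx15 and Maf, did not pass the test. Tbx15 was at 518, 784, 474, 530.1 and 592 CPM in the ASO libraries and 406, 562, 413, 477 and 534 CPM in the CTRL libraries (log2 fold change 0.28, SE 0.17, 95% interval -0.08 to 0.63, edgeR adjusted p = 0.23), all of it on 1 segment (chr3:99261076-99261575, plus strand). Maf was at 265, 295, 162, 134 and 255 CPM in the ASO libraries and 168, 205, 156, 159 and 222 CPM in the CTRL libraries (log2 fold change 0.29, SE 0.22, 95% interval -0.18 to 0.76, edgeR adjusted p = 0.34), with 99.4% of its counts at chr8:116409681-116410180 on the minus strand. In both genes the groups overlapped, and in Maf the ASO libraries divided into replicates 1, 2 and 5, above all CTRL libraries, and replicates 3 and 4, near or below the lowest of them.

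The slow-side factors, Vgll2 and Prox1, varied widely between mice of one group. Vgll2 was at 64.7, 191, 303, 637 and 279.6 CPM in the ASO libraries and 514, 159.9, 156, 257 and 243 CPM in the CTRL libraries, all on 1 segment (chr10:51904108-51904567, plus strand). Its highest and lowest libraries were both ASO libraries, and the log2 fold change was 0.15 (SE 0.49, 95% interval -0.91 to 1.21, edgeR adjusted p = 0.84), which became -0.32 without ASO replicate 4 (edgeR adjusted p = 0.61). Prox1 held 4, 2, 5, 26 and 1 counts with the ASO and 10, 6, 2, 8 and 1 counts in CTRL on 3 segments, the most distal at chr1:189850232-189850731 on the minus strand. In a fit without the filter its log2 fold change was 0.25 (edgeR adjusted p = 0.85), and at 1 to 26 counts a difference between the groups was not detectable at this depth.

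Myh7 and Actn3 give the slow and fast references per library. Myh7 was at 0, 0, 42.3, 268 and 9.90 CPM in the ASO libraries and 63.7, 6.99, 6.42, 22.4 and 0 CPM in the CTRL libraries, a log2 fold change of 1.68 (SE 1.29, 95% interval -1.12 to 4.47, edgeR adjusted p = 0.35) that became -0.61 without ASO replicate 4 (edgeR adjusted p = 0.72). Its segment (chr14:55208141-55208249, minus strand, 109 bp) lies wholly within the antisense transcript Mhrt. Actn3 was at 9074, 8010.1, 10429, 3973 and 12041 CPM in the ASO libraries and 2074, 4054, 1666, 2123 and 2698 CPM in the CTRL libraries (chr19:4911244-4911372, minus strand), with a log2 fold change of 1.79 (SE 0.31, 95% interval 1.12 to 2.46, edgeR adjusted p = 0.0015). The groups overlapped only through ASO replicate 4, the library with the most Myh7 and the least Actn3 of its group, and CTRL replicate 2, which held the most Actn3 in CTRL.

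**Figure D4:**
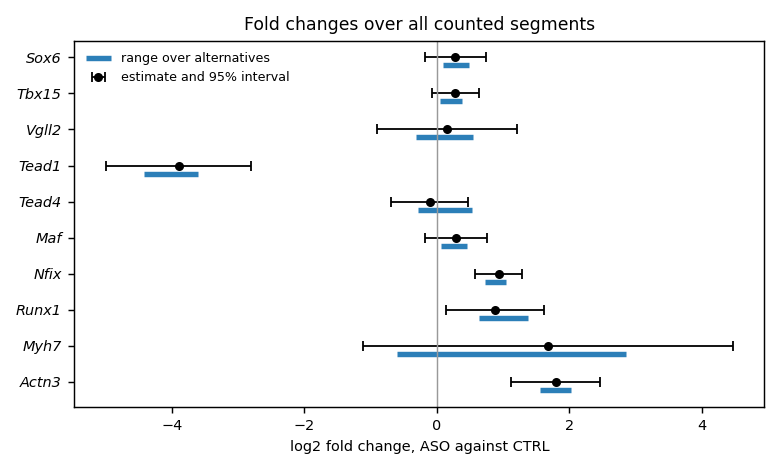
Log2 fold change, ASO against CTRL (x axis), of the 8 tested factors, Myh7 and Actn3 over all counted segments. Black points and bars give the edgeR estimate and its 95% interval, and blue bars the range over the alternative fits; the intervals of Tead1, Nfix, Runx1 and Actn3 exclude 0, Runx1 not passing after adjustment, and Myh7 has the widest interval.

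Across the 10 libraries, 2 factors varied with Myh7 and 1 against it by Pearson's r on the log2(CPM + 1) scale, and by Spearman's rho only Vgll2 passed after adjustment. The largest of the 9 values of r was that of Maf, the factor of the fastest fibers, which was lower where Myh7 was higher (Pearson's r = -0.828, permutation p = 0.0039, adjusted over the 9 relations p = 0.027; Spearman's rho = -0.693, permutation p = 0.032, adjusted p = 0.095). Vgll2 was higher where Myh7 was higher (r = 0.789, permutation p = 0.0065, adjusted p = 0.027, rho = 0.853, permutation p = 0.0035, adjusted p = 0.031). Prox1 varied in the same direction (r = 0.774, permutation p = 0.0089, adjusted p = 0.027, rho = 0.706, permutation p = 0.029, adjusted p = 0.095) but at a handful of counts. With values centred on their group means the 3 coefficients were -0.882, 0.790 and 0.775, with adjusted permutation p-values of 0.039, 0.049 and 0.049.

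The calls rested on 1 or 2 libraries, while these 3 coefficients kept their sign. Leaving out the libraries farthest from the median of Myh7, ASO replicates 4 and 1 (2 others were also at 0 Myh7 and tied with the latter), gave r = -0.715 for Maf, 0.604 for Vgll2 and 0.718 for Prox1 over 8 libraries, with adjusted permutation p-values of 0.17, 0.25 and 0.17. Without ASO replicate 4 alone they were -0.764, 0.689 and 0.623, with adjusted permutation p-values of 0.14, 0.14 and 0.18. ASO replicate 4 was also the library with the highest Schwann cell marker sum, and the part of that in these values was not tested. Sox6, the repressor of slow genes, had r = -0.525 (permutation p = 0.12, adjusted p = 0.26) and Tbx15 had r = -0.471 (permutation p = 0.17, adjusted p = 0.30), and the coefficients of Tead1, Tead4, Nfix and Runx1 were between 0.0337 and 0.406, none of them past the threshold.

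**Figure D5:**
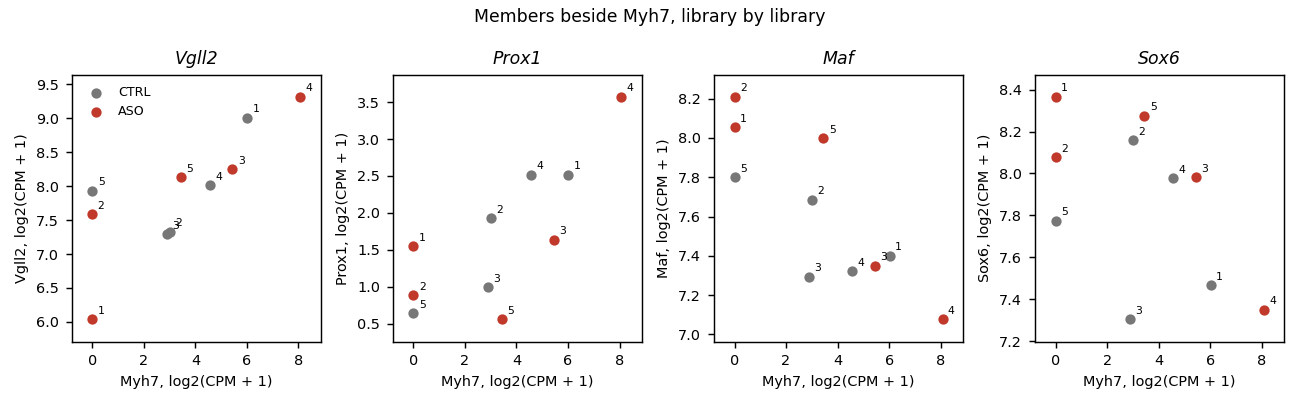
Level of Vgll2, Prox1, Maf and Sox6 (y axes) against Myh7 (x axes) in each of 10 libraries, all as log2(CPM + 1), CTRL in gray and ASO in red with replicate numbers. ASO replicate 4 is at the right end of every panel, at the top for Vgll2 and Prox1 and at the bottom for Maf.

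The letters of the miR-22 seed were looked for in the factors, since the ASO is directed at this miRNA. The mature miR-22-3p is given by RefSeq (GRCm38.p6, chr11:75463772-75463793, plus strand), shown with its seed, bases 2 to 8, in capitals, and the 30-base windows below it are the matches to the seed, GGCAGCT in capitals, in each factor's longest 3′UTR as annotated on GRCm39. They are shown because Prox1 and Tead4 are the 2 factors with a match.
miR-22-3p: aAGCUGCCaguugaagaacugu
Prox1, chr1:189854923-189854952, minus strand: ccaatgccctcGGCAGCTgggtagctcaca
Prox1, chr1:189854469-189854498, minus strand: tggagcacgctGGCAGCTgctagtggacct
Prox1, chr1:189850465-189850494, minus strand: caatttagtttGGCAGCTactaaattttaa
Tead4, chr6:128202612-128202641, minus strand: gtaggaaggcaGGCAGCTcagtcctgtggc

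Of the 9 factors, 2 thus hold the heptamer, and of 7813 tested genes with an annotated 3′UTR 2510, or 32.1%, hold it. The other 7 factors have no match to these 7 letters in any of their annotated 3′UTRs. The Prox1 windows printed first and last lie in counted segments, with 11 and 47 counts over the 10 libraries, whereas the Tead4 window lies 1373 bp before the end of its 3′UTR and in none of its counted segments. Prox1 was too low to be tested. Tead4 was not called over all its segments (log2 fold change -0.11, edgeR adjusted p = 0.78). Its distal segment alone rose (0.80, edgeR adjusted p = 0.027), a call lost with total counts. Nfix and Tead1 were called and have no match, and Tead1 was counted on upstream segments only. The part of miR-22 in these values was not tested.

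The genes closest to the 2 changed factors in pattern were named by the root mean square difference of standardized values around the group means, over 7744 genes and 10 libraries. The nearest to Nfix were Ten1 (0.26) and Ttn (0.39), where the median gene was at 1.44. The nearest to Tead1 were Tmem255b (0.27) and Tsc1 (0.41), where the median gene was at 1.39. They were picked as the smallest values over all genes searched, and whether unrelated genes would come as near was not tested. Ttn, which encodes the giant sarcomere protein titin, rose by a log2 fold change of 1.41 (edgeR adjusted p = 7.2e-04), and Tsc1, a negative regulator of mTOR signaling, fell by 2.07 (edgeR adjusted p = 5.4e-04). Where the counts of Ttn and Tsc1 lie in their genes was not looked at, and the part of the table-wide distal shift in these values was not tested. Ten1 and Tmem255b did not pass.

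Of 21 relatives of the factors within their families 10 were tested. Under edgeR 1 rose and 2 fell, a share close to the 29.2% of all genes tested, and their median log2 fold change was 0.16, where all genes tested had -0.03. Mafa, a large Maf factor of fast fibers like Maf itself, rose by 1.21 (SE 0.29, edgeR adjusted p = 0.0092), with CTRL at 139 ± 23.5 CPM and the ASO group at 322 ± 147 CPM. Its groups overlapped. All its counts lay at its most distal end, where 25.1% of all tested segments rose, and the part of that was not tested. The vestigial-like cofactors Vgll3 and Vgll4 had log2 fold changes of -1.84 (SE 0.53, edgeR adjusted p = 0.021) and -0.99 (SE 0.33, edgeR adjusted p = 0.038). Vgll4 missed the threshold with upper quartile scaling. It was counted at its most distal end only, while 62.6% of the Vgll3 counts were at least 1000 bp upstream.

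Among the genes that work with the factors, several of the Hippo pathway, which restrains the TEAD coactivators, fell. Of 8 tested Hippo kinases and TEAD targets 4 fell and 0 rose under edgeR, against 17.5% of all genes falling, with a median log2 fold change of -0.45. They were the kinase cofactors Mob1b (-3.76, SE 0.55, edgeR adjusted p = 6.0e-04) and Mob1a (-1.70, SE 0.34, edgeR adjusted p = 0.0030), the kinase Stk3 (-1.58, SE 0.37, edgeR adjusted p = 0.0076) and the scaffold Nf2 (-0.48, SE 0.16, edgeR adjusted p = 0.040). All 4 belong to the kinase arm of the pathway, as did 7 of the 8 tested, and with upper quartile scaling or RLE size factors 3 of them passed, without Nf2. Of the TEAD targets, Ccn1 had a log2 fold change of -0.43 (SE 0.31, edgeR adjusted p = 0.33), Ccn2 and Amotl2 were too low to be tested, and Ankrd1 is listed at 0 in all 10 libraries. Of the Mob1b counts 99.3% were at least 1000 bp upstream of its most distal end, as were 38.7% of those of Nf2, 23.3% of those of Stk3 and 7.02% of those of Mob1a, and Stk3 and Mob1a held no counts at the most distal end itself. Of all tested segments that end at least 1000 bp upstream, 53.7% were lower with the ASO. The part of that in the falls of these 4 genes was not tested. Of 7 tested corepressors and coactivators 1 fell and 0 rose under edgeR, near the 17.5% of all genes that fell. It was Ctbp1 (-0.88, SE 0.24, edgeR adjusted p = 0.016), with 33.5% of its counts at least 1000 bp upstream and 0.0147% at the most distal end. The part of the distal shift in this value was not tested either. The TEAD coactivator Wwtr1 had -0.49 (SE 0.24, edgeR adjusted p = 0.14).

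Most of the fast sarcomere genes that could be tested rose. Of 7 tested fast sarcomere genes 5 rose and 0 fell under edgeR, against 11.7% of all genes rising, and the median log2 fold change of the 7 was 0.86. Beside Actn3 these were Mybpc2, the fast myosin-binding protein C (1.54, SE 0.29, edgeR adjusted p = 0.0025), the fast calcium pump Atp2a1 (1.08, SE 0.23, edgeR adjusted p = 0.0041), the Z-disc protein Myoz1 (0.86, SE 0.21, edgeR adjusted p = 0.0090) and Tnnc2, and the same 5 passed under each other scaling. The summed muscle fiber markers were higher in every ASO library than in any CTRL library, and their part in these values was not tested. That sum itself holds Actn3, Pvalb, Tnnt3 and Myh4 of this list, so it is not a separate measure. All counts of Actn3, Mybpc2, Atp2a1 and Myoz1 lay at the most distal end of their gene, where 25.1% of all tested segments rose (median 0.30 on the log2 scale), and the part of that was not tested either. Myh1, Myh2 and Myh4 held too few counts to be tested, Myh4 at 4 to 9 per ASO library and 1 to 3 per CTRL library. The paper measured Myh7 and Myh4 in GAS of DIO mice in a targeted expression analysis. It reports Myh7 as highly overexpressed with the treatment and Myh4 as unaffected. Here Myh7 was not called (log2 fold change 1.68, edgeR adjusted p = 0.35) and Myh4 was not tested. Whether the counts of these 2 genes follow their RNA levels was not tested.

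Of 8 tested slow sarcomere genes 1 rose, Myl6b (1.72, SE 0.56, edgeR adjusted p = 0.037), and 0 fell under edgeR, near the 11.7% of all genes that rose, and the median was 1.38 (log2 fold change) with wide errors. With total counts in place of TMM, Myl6b did not pass. Myl2 (log2 fold change 1.70, SE 1.27), Myl3 (1.51, SE 1.35), Tnnc1 (0.74, SE 1.41) and Tpm3 (1.24, SE 1.30) also had SEs above 1, and none of them passed. Of 6 tested genes of the denervation response, in which Runx1 also takes part, 1 rose and 1 fell, near the 29.2% of all genes called. Myog, the myogenic factor that rises in denervated muscle, rose by 2.16 (SE 0.29, edgeR adjusted p = 3.7e-04), and the ubiquitin ligase Trim63 fell by 0.77 on the log2 scale (SE 0.22, edgeR adjusted p = 0.019). All counts of Myog and Myl6b lay at the most distal end of their gene, where 25.1% of all tested segments rose. The part of that was not tested.

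Several of the factors are also expressed outside muscle fibers, Prox1 in lymphatic endothelium, Maf in macrophages and Runx1 in leukocytes. The summed lymphatic markers were 34.8 to 136 CPM in the ASO libraries and 35.4 to 114 CPM in the CTRL libraries, with 0 of 4 tested markers past the threshold in either direction by edgeR, and ASO replicate 4, the library with the most Prox1, had the highest sum. Leukocyte markers were at 0 to 2.33 CPM in all 10 libraries. The 8 macrophage markers summed to 74.0 to 575 CPM in the ASO libraries and 261 to 1609 CPM in the CTRL libraries, where Mrc1 was lower by the test and Adgre1 and Cd163 were listed at 0. Satellite cells also use Nfix and Runx1, and their markers summed to 87.9 to 110.4 CPM in the ASO libraries and 37.1 to 62.9 CPM in the CTRL libraries, with Calcr listed at 0. Most of this sum was Cdh15, with group means of 89.6 and 38.3 CPM (log2 fold change 1.23, edgeR adjusted p = 3.3e-04). Pax7, the defining satellite cell marker, was not called (log2 fold change 0.17, edgeR adjusted p = 0.65), and Myf5, at 0 to 18 counts per library, was too low to be tested. Fibroblast markers summed to 34.4 to 223 CPM in the ASO libraries and 175 to 275 CPM in the CTRL libraries, with Dcn listed at 0. Of them, Lum was lower (log2 fold change -1.72, edgeR adjusted p = 0.0013) and Col1a1 was not called (log2 fold change 0.36, edgeR adjusted p = 0.55). Pdgfra was too low to be tested. Endothelial and adipocyte marker sums overlapped between the groups. The part of these cells in the levels of the factors was not tested.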

How the data were processed

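RNA-seq counts of GAS from 5 ASO and 5 CTRL mice were analysed, and the 4 other per-sample columns were not used. Per the paper's methods and the submitters' processing notes, fastp was used by the authors for trimming, STAR for alignment to GRCm39 and featureCounts with Gencode M25 for counting read pairs on the last 500 bp of 3′UTRs. The deposited values are unnormalized counts per segment, with no strand option given in the sources used here. Segments were summed per gene with GENCODE M39, in which 52361 of 52423 identifiers were found, and the other 62 hold 0.0197% of the counts. The test was that of edgeR 4.0.16 under R 4.3.3 (TMM, filterByExpr by group, quasi-likelihood test, Benjamini-Hochberg adjusted p-value of 0.05, no covariate). DESeq2 1.42.0, which the authors used, and limma-voom 3.58.1 were alternatives. CPM values are for TMM-scaled library sizes, and errors are SDs of 5 libraries where not named. The p-values measure the spread between libraries, each taken as 1 mouse. No pair of libraries agreed within sampling noise.

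The factors, the lists of other genes and the tests were chosen with earlier results of these data known. Named are the 9 factors, Myh7 and Actn3, up to 4 called members of each list by adjusted p, and the 2 genes nearest to each called factor among those averaging at least 10 counts a library. Other genes, such as Ccn1, Wwtr1 and Tnnc2, were named after their values were seen. Fits of single segments, the distal ratio (at least 200 unique bp per segment) and some left-out libraries were added after seeing the data. Correlations used 100000 permutations, two-sided. The scripts were tested on simulated data. The remaining steps ran in Python 3.11.15, with scipy 1.17.1 for tests and matplotlib 3.10.9 for plots. Coordinates are 1-based on GRCm39 unless a build is named. miR-22 itself and its host gene were not analysed here.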

Additional observations from a re-analysis of the deposited data

Results flagged for a closer look

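In 3 of the 22 groups of 5 libraries looked at, the highest library stood far from the rest, with a gap to its nearest neighbor, relative to the group's whole range, above Dixon's critical value of 0.71. Chance gives about 1 such group in 20. Prox1 was at 10.9 CPM in ASO replicate 4, against at most 2.11 CPM in the other 4 ASO libraries, and rests on 26 counts. Myh7 was at 268 CPM in the same library, against at most 42.3 CPM in the others of its group. Vgll2 was at 514 CPM in CTRL replicate 1, the CTRL library with the most Myh7, against at most 257 CPM in the other 4. Both ASO flags come from 1 library, so they are not independent of each other.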

How the results depend on the processing

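Nfix, Actn3, Tbx15, Maf and Sox6 kept their direction and their side of the threshold in 20 other fits of their log2 fold changes, and Tead1 did so in the 19 in which it was tested. With at least 10 counts in every library, Tead1 was not tested and 1 factor was called, Nfix. On the most distal counted segment alone, 992 genes were called over the whole table, with 6081 genes tested. Leaving out 1 library gave 2 to 3 called factors, 1825 to 2373 called genes, and log2 fold changes of -0.32 to 0.54 for Vgll2, -0.61 to 2.86 for Myh7 and -0.26 to 0.14 for Tead4. Reversed values, with no call before or after, were those of Vgll2 (-0.06 by limma-voom, -0.08 on the most distal segment, -0.32 without ASO replicate 4), Myh7 (-0.33 by limma-voom, -0.61 without ASO replicate 4) and Tead4 (0.53 on the most distal segment, 0.05 without ASO replicate 5, 0.14 without CTRL replicate 4). The causes were not tested, except that the distal segment of Tead4 leaves out its upstream counts by construction. Of the correlations with Myh7, 0 of 9 passed without the 2 libraries farthest from its median, 0 of 9 without ASO replicate 4, where that of Nfix became -0.0828, and 1 of 9 (Maf) on the log2(CPM + 0.1) scale.

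Replicate numbers are shared between the groups, but nothing in the labels says what they pair. Deviations of same-numbered libraries from their group means correlated at -0.427, 0.058, 0.053, 0.060 and 0.164. No ASO library correlated best with the CTRL library of its own number. No pairing was seen in these correlations, which cannot tell whether the numbers mark one. With the replicate number as a block, 1838 genes were called over the whole table, and 2 factors, Nfix (edgeR adjusted p = 0.011) and Tead1 (edgeR adjusted p = 0.0012). Depth limits Prox1 and Runx1, at 1 to 43 counts per library, and with these totals small changes in them were not detectable.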
